A study of Mus musculus with 8 samples.

Results

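Loop of Henle cells of the embryonic mouse kidney were taken from a single-cell RNA-seq library as the cells that held at least 8 unique molecular identifiers (UMIs, counted RNA molecules) of Umod plus Slc12a1 and at most 2 UMIs of Slc12a3. The rule found 445 of 6495 cells assigned to a mouse, or 6.85%. The members were thus selected on the UMIs of Umod, Slc12a1 and Slc12a3, so the levels of these genes are given below as a description without a test. The cells came from male embryos at day 17.5 by the sample labels (the study's text gives a later day), dissociated with a cold-active protease, tagged with a lipid-anchored oligonucleotide per mouse, pooled and run as a single library. In 2 Trim28Δ/Δ embryos (mouse 1 and mouse 2), a Six2-EGFP/cre transgene, active in nephron progenitors, deleted floxed Trim28, so only cells descended from those progenitors should carry the deletion and the ureteric tree and stroma should not. The 2 controls (mouse 3 and mouse 4) were Trim28f/f. The replicate is the mouse, with n = 2 for each genotype. The members numbered 102 in mouse 1 and 77 in mouse 2, against 178 in mouse 3 and 88 in mouse 4.

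The loop of Henle is the hairpin segment between the proximal tubule and the distal convoluted tubule. Its thick ascending limb takes up sodium, potassium and chloride through the cotransporter NKCC2, encoded by Slc12a1, returns potassium to the lumen through the channel ROMK, encoded by Kcnj1, and lets calcium and magnesium or sodium pass between cells through claudins. It secretes uromodulin, encoded by Umod, the main protein of normal urine. The macula densa, a plaque of specialised cells at the end of this limb, senses salt and signals through Nos1 and Ptgs2. TRIM28 is a co-repressor that KRAB zinc-finger proteins bring to DNA. It keeps transposable elements silent and, together with ZFP57, helps keep the methylation of imprinted loci. Imprinted genes are expressed from a single parental copy.

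The sequences that assigned each cell to its mouse are the sample tags, shown because every comparison between mice rests on them.
CMO305 (Trim28Δ/Δ mouse 1): cgcgatatggtcgga
CMO308 (Trim28Δ/Δ mouse 2): cggattccacatcat
CMO306 (Trim28f/f mouse 3): aagatgaggtctgtg
CMO307 (Trim28f/f mouse 4): aagctcgttggaaga

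A further pair of sequences is shown because the results below turn on their genes. The promoter of Umod in RefSeq (GRCm38.p6, chr7:119479213-119479512, minus strand, 250 bases before the transcript start and 50 after) holds the core GTTAAT of the motif of HNF1, a transcription factor of kidney epithelia, in capitals. The promoter of Meg3 (chr12:109540746-109541045, plus strand), which shared the lowest adjusted p of the comparison of genotypes with Rian, holds the hexamer of ZFP57, searched as TGCCGC on both strands and found as its reverse complement, in capitals.
Umod: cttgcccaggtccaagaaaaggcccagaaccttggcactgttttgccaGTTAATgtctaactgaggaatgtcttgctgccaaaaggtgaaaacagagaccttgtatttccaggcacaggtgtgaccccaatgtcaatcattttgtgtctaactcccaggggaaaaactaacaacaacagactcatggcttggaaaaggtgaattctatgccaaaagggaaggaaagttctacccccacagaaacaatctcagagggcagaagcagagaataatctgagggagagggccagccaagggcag
Meg3: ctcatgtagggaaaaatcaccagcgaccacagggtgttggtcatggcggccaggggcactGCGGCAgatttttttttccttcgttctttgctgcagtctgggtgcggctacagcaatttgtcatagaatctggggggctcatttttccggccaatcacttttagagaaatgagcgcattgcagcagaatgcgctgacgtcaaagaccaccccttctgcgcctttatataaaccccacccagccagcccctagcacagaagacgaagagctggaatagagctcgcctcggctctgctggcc
GTTAAT on either strand occurred in the windows of Umod, Cldn10 and Eprn, or 3 of 13 windows from the 11 leading genes with a RefSeq promoter (23.1%), against 7.10% of all 32851 windows. TGCCGC occurred in the windows of Meg3 and Lgi2, or 2 of 12 windows from the 10 matched genes higher in Trim28Δ/Δ cells (16.7%), against 11.6% of all windows. The letters of the 2 motifs do not overlap in any printed window, and a match of letters does not show binding.

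The label was checked first against marker genes that the rule did not use. Cldn19, a claudin of the thick ascending limb, reached 275 CPM (UMIs per 1000000 gene UMIs) over the summed members against 23.5 CPM over all other assigned cells, and 91.2% of members held a UMI of it. Kcnj1 reached 128 CPM against 7.22 CPM and was seen in 69.7% of members. Both are defining markers of this limb. Distal convoluted cells held Cldn19 at 76.7 CPM and Kcnj1 at 117 CPM, so Kcnj1 separated the members from the pooled other cells but not from this neighbouring segment. Tmem72, a further marker, was seen in 356 of the 445 members. Egf, a product of the adult distal nephron, was seen in 4.49% of members at 1.94 CPM, so this marker of the mature limb was at the level of free RNA (1.45 CPM). Free RNA, read from 353040 barcodes with 10 to 100 UMIs, held Cldn19 at 49.6 CPM and Kcnj1 at 15.6 CPM. Transcripts free in the suspension can therefore give single UMIs of these genes to any cell, and 18.9% of the 3017 cells with no UMI of Umod or Slc12a1 (median 15812 UMIs) held Cldn19.

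At the edge of the rule, the 71 cells with 5 to 7 UMIs of Umod plus Slc12a1 held Cldn19 in 70.4% and Kcnj1 in 22.5%. The 35 members with 8 to 10 UMIs held them in 88.6% and 31.4%, and the 259 members with 40 or more UMIs held them in 93.4% and 86.5%. A further 8 cells reached 8 UMIs but held more than 2 UMIs of Slc12a3 and were left out. Their median was 51864.5 UMIs a cell, against medians of 18283.5 to 22499.5 UMIs in the members of each mouse.

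Ordered by the ratio of their level in members to that in all other cells, the leading genes included genes of salt transport and claudins beside genes of other kinds. Slc12a1 itself stood at 2408 CPM against 33.97 CPM, and by mouse at 2591 and 1982 CPM in Trim28Δ/Δ and 2629 and 2195 CPM in Trim28f/f members. Umod stood at 368 CPM against 10.4 CPM. Car15, a carbonic anhydrase, was at 993 CPM against 10.0 CPM, and Ppp1r1a, a protein phosphatase inhibitor, at 350 CPM against 18.2 CPM. Cldn16, the claudin of calcium and magnesium reabsorption, was at 112 CPM against 2.68 CPM, and Cldn10, a claudin of sodium passage, at 724 CPM against 66.9 CPM. Cldn10 was also present in proximal tubule cells at 249 CPM. Pappa2, a protease gene of the macula densa region, reached 232 CPM against 7.43 CPM. Not all leading genes set the members apart from their neighbour segment. Kcnj1 stood at 117 CPM in distal convoluted cells, where ROMK is also used. Klk1 (kallikrein) stood at 251 CPM in members and 378 CPM in distal convoluted cells, but the latter level rested mainly on mouse 2. By mouse, on scaled library sizes, distal convoluted cells held Klk1 at 241 and 1144 CPM in Trim28Δ/Δ and 205 and 159 CPM in Trim28f/f mice. The members held it at 391 and 136 CPM against 227 and 283 CPM, lower than distal convoluted cells in mouse 2 only. Sostdc1, a secreted BMP and Wnt antagonist, was at 2251 CPM in members and 1538 CPM in distal convoluted cells. These cells, the comparison population nearest to the members, were 125 cells with at least 3 UMIs of Slc12a3. Proximal tubule cells (649, at least 10 UMIs of Slc34a1) and collecting duct cells (538, at least 5 UMIs of Aqp2) were compared in the same way.

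**Figure D1:**
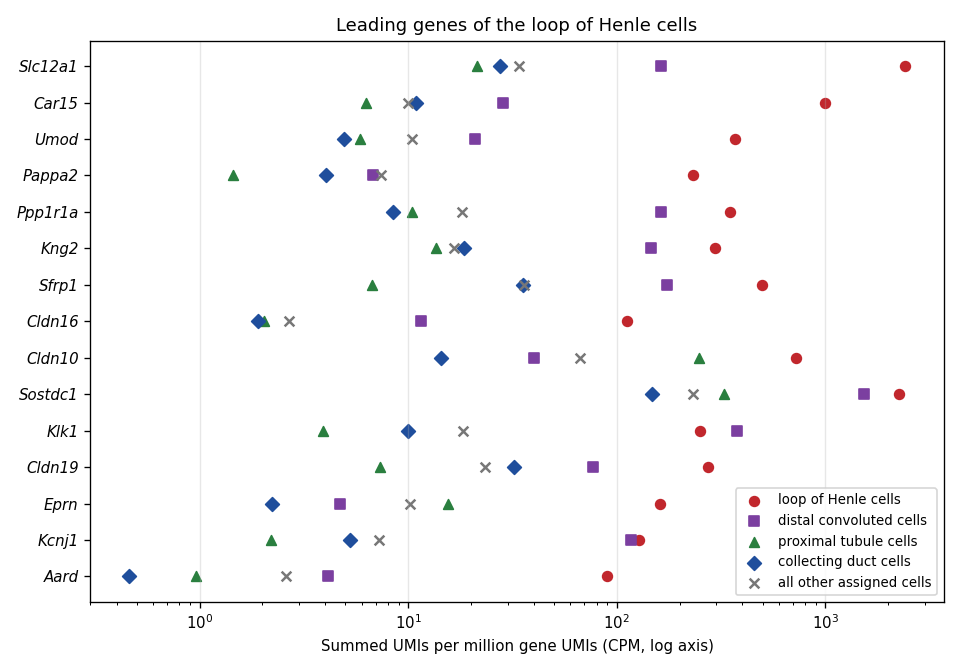
Levels of the 15 leading genes in CPM (log axis), with each gene on its own line. Symbols give the level over all members, over distal convoluted, proximal tubule and collecting duct cells, and over all other assigned cells. Slc12a1 lies at 2408 CPM in members and 33.97 CPM in the other cells, while Klk1 lies higher in distal convoluted cells (378 CPM) than in members (251 CPM). This level of Klk1 in distal convoluted cells rests mainly on mouse 2.

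The members were not uniform. Umod was seen in 57.8% of them and Slc12a1 in 97.1%, with a median of 43 Slc12a1 UMIs a cell. A total of 126 members held at least 8 Umod UMIs (Umod-rich) and 188 held none (Umod-free). The Umod-free members were not poor in Slc12a1, with a median of 48.5 UMIs against 34 UMIs in Umod-rich members, although their libraries were smaller (median 16187 against 26615 UMIs). A cell without Umod had to pass on Slc12a1 alone, so the rule itself sets part of this difference.

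Umod-rich and Umod-free members differed in a group of genes in the same direction in all 4 mice. Of 3473 genes with at least 50 CPM in either set, 16 (Umod included) were more than 2-fold higher in Umod-rich members in every mouse and 33 were more than 2-fold lower, counted on CPM + 10. Sim2, a bHLH-PAS transcription factor, stood at 98.9 CPM in Umod-rich and 8.02 CPM in Umod-free members. Plau, the urokinase gene, stood at 182 and 25.3 CPM, and Foxc1, a forkhead factor, at 102 and 17.0 CPM. Cldn10 was also more abundant in Umod-rich members, at 1078 against 393 CPM, as was Ptger3, a prostaglandin E2 receptor, at 51.9 against 20.6 CPM.

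Other genes were more abundant in Umod-free members. Ptgs2, which encodes cyclooxygenase 2, was at 218 CPM in Umod-free and 3.31 CPM in Umod-rich members. Pappa2 was at 411 against 31.8 CPM. Tmem52b was at 438 against 39.9 CPM and Foxq1, a forkhead factor, at 257 against 28.5 CPM. Cldn16 was at 172 against 43.5 CPM, while Cldn19, its partner in the tight junction, was at 244 against 295 CPM and so lay on the Umod-rich side. Col4a3 and Col4a4, basement membrane collagens, were at 124 and 225 CPM against 12.97 and 45.3 CPM. Since the same cells chose the groups, these values are a description.

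**Figure D2:**
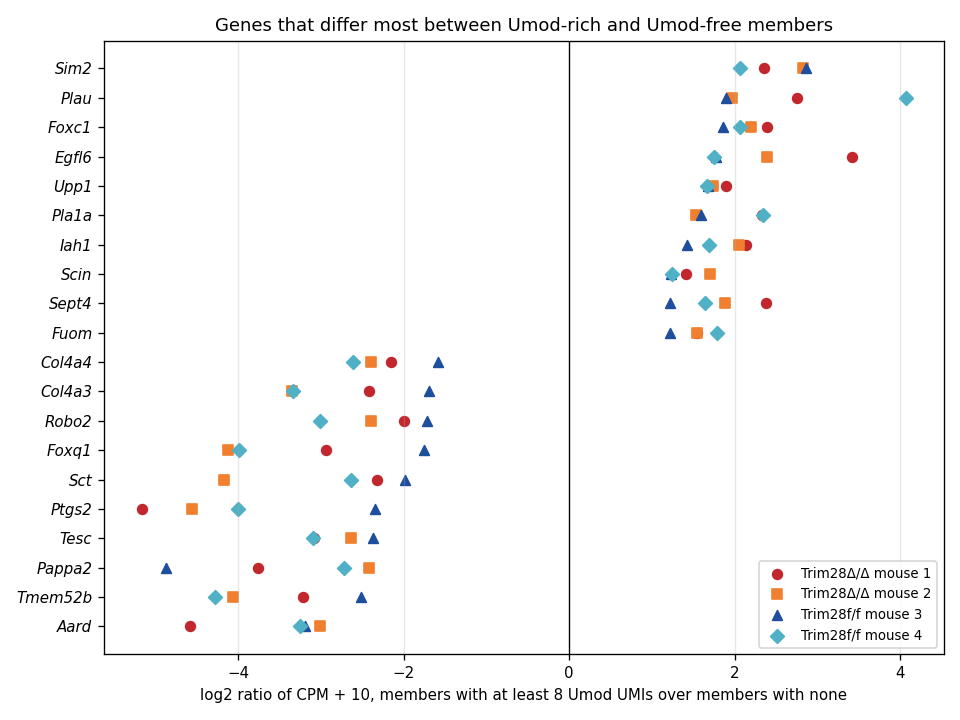
The log2 ratio of CPM + 10 in Umod-rich over Umod-free members for 20 genes, with 1 symbol for each mouse and 0 marked by a line. All 4 mice lie to the right of 0 for Sim2 and Plau and to the left for Ptgs2 (from -5.16 to -2.35) and Car15.

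Claudins and transcription factors were also compared across single members, where they did not follow a single axis. Over all 445 members, on UMIs per cell scaled to depth, Cldn16 and Foxq1 had a Spearman rho of 0.58 (0.52 to 0.64 by mouse), and Cldn10 and Foxq1 a rho of -0.47. Irx1 and Irx2, homeobox genes of the distal nephron, had a rho of 0.63, whereas Irx1 and Foxq1 had a rho of -0.53. Cldn10 and Cldn16 had a rho of -0.27, and Cldn10 and Ptger3 a rho of 0.48. Nos1 was seen in 15.3% of members, and its rho was 0.46 with Pappa2 and 0.45 with Ptgs2. Pappa2, more abundant in Umod-free members as Foxq1 was, had a positive rho with Cldn10 (0.19) and Irx1 (0.36), and Cldn19 had a positive rho with both Cldn10 (0.36) and Cldn16 (0.13). Slc12a1 had a rho of 0.72 with Ppp1r1a. All cells came from the same library and differed in depth, and these values are descriptions across cells.

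The share of loop of Henle cells differed between genotypes by less than the spread between mice. Members made up 8.73% of the assigned cells of mouse 1 (exact 95% binomial interval 7.18 to 10.5) and 5.97% of mouse 2 (4.74 to 7.41), against 7.15% of mouse 3 (6.17 to 8.23) and 5.68% of mouse 4 (4.58 to 6.96). The ranges of the genotypes overlapped. The mean difference was 0.937 percentage points (exact two-sided permutation test over mice, p = 0.667, where 0.333 is the smallest p that 2 against 2 mice allow). Of the loop of Henle, distal convoluted and proximal cells together, members made up 34.3% and 30.3% in Trim28Δ/Δ against 42.7% and 35.1% in Trim28f/f mice, without overlap (difference -6.54 percentage points, exact permutation p = 0.333). Intervals on shares cover counting error only.

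Umod-rich members made up 23.5% and 31.2% of Trim28Δ/Δ members against 25.3% and 37.5% of Trim28f/f members. Umod-free members made up 43.1% and 46.8% against 42.7% and 36.4%. The first pair of ranges overlapped and the second did not. UMIs of Umod helped choose the members, so these shares are a description.

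Genes of the G2 and M phases of the cell cycle were counted in each cell. After each cell was thinned to 6800 UMIs, 16.7% and 22.1% of Trim28Δ/Δ and 21.3% and 23.9% of Trim28f/f members held at least 5 UMIs over 12 genes of the G2 and M phases (difference -3.23 percentage points, exact permutation p = 0.667). The genotypes overlapped. Without thinning the shares were 34.3% and 42.9% against 46.1% and 47.7%, which no longer overlapped. Proximal tubule cells, at 3.87% and 3.85% against 11.2% and 7.04%, and collecting duct cells, at 8.91% and 8.46% against 6.57% and 7.34%, held fewer such cells in every mouse. Distal convoluted cells held them in 17.5% and 23.8% against 16.3% and 23.8%. Free RNA can give such UMIs as well, and the list summed to 1143 CPM in the members and 941 CPM in free RNA, so the counts are not a measure of division by themselves. Umod-rich members held such UMIs in 25.4% and Umod-free members in 14.9%.

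The members of each mouse were summed to a single profile for the comparison of genotypes. The sums held 2252045 and 2135756 UMIs in Trim28Δ/Δ and 4560800 and 2384757 UMIs in Trim28f/f mice, so mouse 3 weighed the most. Median mitochondrial shares were higher in Trim28Δ/Δ members (5.41% and 5.63% against 3.95% and 4.65%), as they were over all assigned cells (4.07% and 3.83% against 2.89% and 3.48%). Mouse 3 stood apart in the genes of the hypoxia response, whose sum in members was 2923 CPM against 691, 684 and 635 CPM in mice 1, 2 and 4. The same mouse was high in the distal convoluted (2264 CPM), proximal (1971 CPM) and collecting duct cells (5637 CPM). Stroma markers also differed, as given below. The part of each of these in the results that follow was not tested unless a value is given.

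Trim28 fell in the members of both Trim28Δ/Δ mice. Its level was 22.5 and 23.3 CPM in Trim28Δ/Δ against 82.5 and 99.3 CPM in Trim28f/f members, without overlap (log2 change -1.98 ± 0.21 SE, adjusted p = 0.0345 by the Benjamini-Hochberg method on p-values of the quasi-likelihood test in edgeR). UMIs of Trim28 were found in 33.3% and 41.6% of Trim28Δ/Δ and in 74.7% and 79.5% of Trim28f/f members. The library counts the 3′ end of transcripts, which the deletion does not remove, and free RNA held Trim28 at 115 CPM. A remaining UMI therefore does not by itself mark a cell that escaped deletion, and escape was not tested. Trim28 lies at chr7:12999114-13031035 in GRCm38.

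Of 11087 genes tested in the members, 18 passed an adjusted p of 0.05 by edgeR's quasi-likelihood test (0.162% of those tested). Of these, 16 were higher in Trim28Δ/Δ members (0.144%) and 2 were lower (0.018%), and 813 genes had an unadjusted p under 0.05. The median log2 change over all tested genes was -0.01. The groups did not overlap for 2090 genes in the direction of higher Trim28Δ/Δ levels (18.9%) and for 2021 in the direction of lower levels (18.2%), which is the background for the counts of lists below. CPM in these comparisons are scaled by TMM library sizes. No source states that the embryos of a genotype came from separate litters, and p-values measure the spread between these mice.

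The genes with the lowest adjusted p lay at the imprinted Dlk1-Meg3 locus on chromosome 12. Meg3, a long non-coding RNA expressed from the maternal copy, stood at 1126 and 596 CPM in Trim28Δ/Δ against 46.3 and 54.7 CPM in Trim28f/f members (chr12:109541001-109571726, log2 change 4.10 ± 0.32 SE, adjusted p = 0.0215). Both Trim28Δ/Δ mice lay far above both controls. UMIs of Meg3 were found in 86.3% and 83.1% of Trim28Δ/Δ and in 33.1% and 28.4% of Trim28f/f members, and free RNA held Meg3 at 129 CPM. Rian, the non-coding RNA downstream of Meg3, stood at 176 and 99.7 CPM against 10.1 and 9.25 CPM (chr12:109603940-109661716, log2 change 3.82 ± 0.32 SE, adjusted p = 0.0215). It was found in 71.6% and 68.8% of Trim28Δ/Δ against 11.8% and 7.95% of Trim28f/f members.

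Further along the same strand, B830012L14Rik, at chr12:109695586-109702587, had 37 and 24 UMIs in Trim28Δ/Δ and 2 and 1 UMIs in Trim28f/f members (adjusted p = 0.0430). The ratio of its depth-scaled UMIs was 32.2, with an exact counting interval from 10.5 to 160. Mirg, a further RNA of the locus, stood at 15.3 and 6.52 CPM against 2.46 and 1.26 CPM and did not pass (adjusted p = 0.327). Across the members of a mouse, Meg3 and Rian on UMIs scaled to depth had a Spearman rho of 0.81 and 0.75 in the Trim28Δ/Δ mice and of 0.33 and 0.37 in the Trim28f/f mice, a description over cells of a single library with far fewer UMIs of both genes in the controls.

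Meg3 did not overlap between the genotypes in any of the 3 parts of the members by Umod. In Umod-rich members Meg3 stood at 823 and 506 CPM in Trim28Δ/Δ against 37.3 and 14.3 CPM in Trim28f/f mice. In Umod-free members it stood at 1318 and 924 CPM against 62.0 and 25.8 CPM, and in members with 1 to 7 UMIs of Umod at 1141 and 330 CPM against 32.9 and 152 CPM, the smallest gap. A single member of mouse 4 held 87 of that mouse's 130 UMIs of Meg3, and without it the level of mouse 4 was 18.4 CPM in place of 54.5 CPM on unscaled library sizes. Trim28Δ/Δ members without a Trim28 UMI held Meg3 at 1268 and 681 CPM, and those with a Trim28 UMI at 862 and 525 CPM, so cells with remaining Trim28 UMIs also held Meg3 far above the controls. Cells without a Trim28 UMI had smaller libraries in both mice (medians 17763.5 against 22414.5 and 20708 against 25916 UMIs).

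Other genes that rose spanned several chromosomes. Resf1, which encodes a retroelement silencing factor, stood at 210 and 232 CPM against 68.4 and 63.5 CPM (chr6:149309414-149335663, log2 change 1.74 ± 0.17 SE, adjusted p = 0.0316). Prnp, the prion protein gene, stood at 54.8 and 67.1 CPM against 9.61 and 13.04 CPM (chr2:131909928-131938429, log2 change 2.46 ± 0.25 SE, adjusted p = 0.0345). Prnp was seen in 52.0% and 71.4% of Trim28Δ/Δ against 19.7% and 22.7% of Trim28f/f members, and the levels of the genotypes lay well apart for both genes. Ethe1, a mitochondrial sulfur dioxygenase, stood at 140 and 143 CPM against 54.3 and 55.9 CPM (chr7:24587543-24608925, log2 change 1.36 ± 0.17 SE, adjusted p = 0.0437). In Umod-rich members the genotypes overlapped for Ethe1, at 42.5 and 83.5 CPM against 47.8 and 27.6 CPM. They did not overlap in Umod-free members, at 213 and 207 CPM against 62.0 and 85.1 CPM. Members with 1 to 7 UMIs of Umod held it at 138 and 139 CPM against 48.2 and 63.4 CPM. Zfhx4, a zinc-finger homeobox gene, stood at 27.4 and 22.8 CPM against 1.12 and 3.37 CPM, and Lgi2, which encodes a secreted leucine-rich repeat protein, at 33.7 and 33.1 CPM against 7.60 and 8.83 CPM.

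Hspb1, the small heat shock protein gene, rose in level while the share of cells with a UMI differed little. It stood at 146 and 92.7 CPM against 26.8 and 25.2 CPM (log2 change 2.19 ± 0.26 SE, adjusted p = 0.0430), while 30.4% and 36.4% of Trim28Δ/Δ and 29.8% and 27.3% of Trim28f/f members held a UMI of it. A single member held 153 of its 324 UMIs in the first Trim28Δ/Δ mouse and another held 126 of its 199 UMIs in the second, against at most 13 of 120 and 17 of 60 in the Trim28f/f mice. Without the highest member of each mouse, sums of counts over library size gave 77.3 and 34.4 CPM against 23.5 and 18.4 CPM, so the groups still did not overlap but the difference was smaller. The part of the members that carried the higher level also differed between the Trim28Δ/Δ mice. Umod-rich members held Hspb1 at 19.04 and 26.9 against 35.99 and 20.4 CPM, members with 1 to 7 UMIs of Umod at 386 and 10.8 against 15.3 and 34.9 CPM, and Umod-free members at 46.1 and 230 against 26.1 and 23.2 CPM. Of these 3 parts, the genotypes did not overlap in Umod-free members and overlapped in the others. Aard, a leading gene of the members and mostly a gene of Umod-free cells, stood at 203 and 133 CPM against 37.8 and 48.8 CPM (chr15:52040107-52045722, log2 change 1.97, adjusted p = 0.0460). A leading gene needed 50 CPM over all members, which Aard reached only through Trim28Δ/Δ cells (controls 37.1 and 48.6 CPM, unscaled). Within Umod-free members it stood at 333 and 341 CPM in Trim28Δ/Δ against 86.9 and 134 CPM in Trim28f/f mice. The genotypes did not overlap within these cells. They overlapped in the other parts, at 230 and 7.74 CPM against 13.8 and 11.1 CPM in members with 1 to 7 UMIs of Umod and at 4.39 and 33.7 CPM against 0.654 and 5.11 CPM in Umod-rich members.

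Several of the genes that rose were predicted or little-studied loci. Fbxw19, an F-box gene of a multigene cluster whose members may share reads, had 38 and 56 UMIs in Trim28Δ/Δ and 1 and 2 UMIs in Trim28f/f members (chr9:109476654-109495875, adjusted p = 0.0345). The ratio was 49.6 with an exact counting interval from 16.5 to 245. Gm11100 stood at 92.1 and 160 CPM against 4.69 and 11.8 CPM (chr14:13918444-13949558, log2 change 4.05 ± 0.44 SE, adjusted p = 0.0345), and Gm49708 at 45.8 and 68.0 CPM against 9.39 and 12.6 CPM. The genotypes did not overlap for any of these. Cdh13, Slitrk4 and 2410018L13Rik passed as well and are named here after their values were seen. Cdh13, an atypical cadherin, had 32 and 25 UMIs against 4 and 2 UMIs. In Umod-rich members Cdh13 stood at 0 and 0 CPM against 1.31 and 1.02 CPM. Umod-free members held it at 31.1 and 20.1 CPM against 0.579 and 0 CPM, and those with 1 to 7 Umod UMIs at 7.13 and 15.5 against 0.766 and 1.58 CPM. Slitrk4, on chromosome X, had 32 and 25 UMIs against 4 and 1 UMIs, and 2410018L13Rik had 79 and 69 UMIs against 15 and 17 UMIs.

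Beside Trim28, Igfbp5 was the gene that fell. This insulin-like growth factor binding protein stood at 18.9 and 22.8 CPM in Trim28Δ/Δ against 71.8 and 78.7 CPM in Trim28f/f members (chr1:72857932-72874884, log2 change -1.85 ± 0.21 SE, adjusted p = 0.0403). It was seen in 30.4% and 33.8% of Trim28Δ/Δ and 55.6% and 45.5% of Trim28f/f members. A single member held 78 of the 187 UMIs in mouse 4, whose level without it was 46.4 CPM in place of 78.4 CPM on unscaled library sizes. The call held in 7 of 14 alternatives. When the 28 members that also held markers of other cell types were left out, its log2 change was -1.42 and it did not pass (adjusted p = 0.465, edgeR's quasi-likelihood test), whereas 17 of the 18 calls remained among 36 genes.

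**Figure D3:**
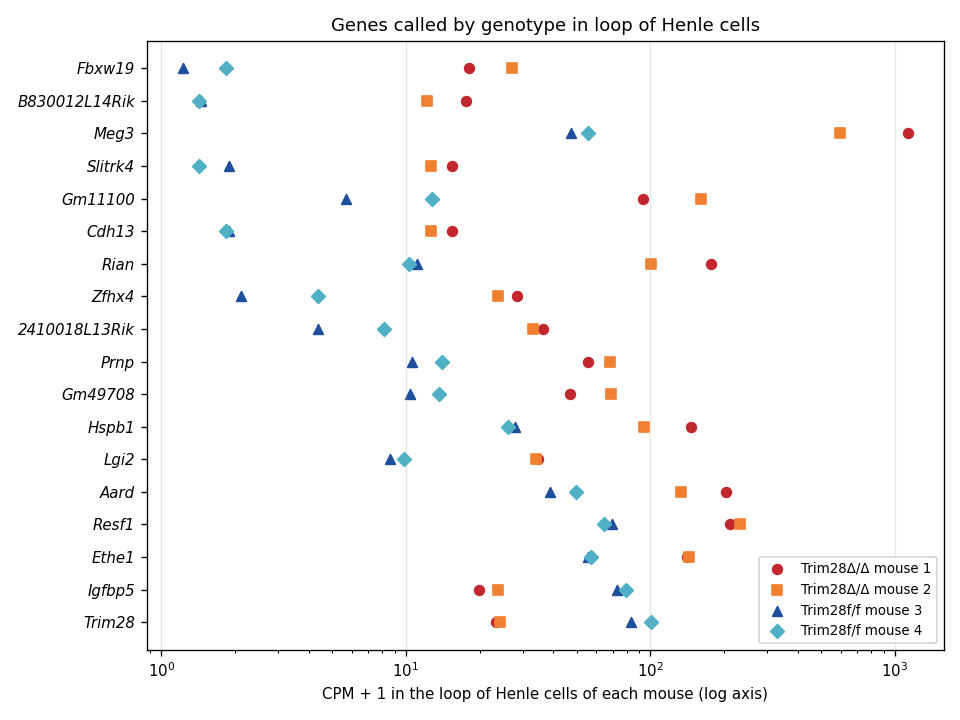
CPM + 1 (log axis) in the members of each mouse for the 18 genes that passed an adjusted p of 0.05, with 1 symbol for each mouse. The 2 Trim28Δ/Δ mice lie right of both controls for 16 genes and left of them for Trim28 (22.5 and 23.3 against 82.5 and 99.3 CPM) and Igfbp5.

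No gene of the lists that define the segment passed the test. Beside the most abundant genes of each list below, some of those that lay apart between the genotypes are named, chosen after their values were seen. Of the loop of Henle markers, Umod and Slc12a1 chose the cells and are given without a test. Cldn19 stood at 283 and 261 CPM in Trim28Δ/Δ against 288 and 269 CPM in Trim28f/f members, and Kcnj1 at 152 and 128 CPM against 114 and 141 CPM (adjusted p = 0.884). Umod stood at 491 and 424 CPM against 283 and 381 CPM. Of 10 tested further markers of the thick ascending limb, 0 passed (3 at an unadjusted p under 0.05), 3 lay above and 1 below the controls without overlap, and their median log2 change was 0.06. Among them Wfdc15b, a protease inhibitor gene, stood at 672 and 532 CPM against 288 and 289 CPM and missed the threshold (log2 change 1.06 ± 0.16 SE, adjusted p = 0.0719).

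The transporters of the salt pathway, a list that holds Slc12a1 of the rule, were 0 of 16 called (1 at an unadjusted p under 0.05), with 2 above and 1 below the controls and a median log2 change of -0.07. Atp1b1, the beta subunit of the sodium pump, stood at 3465 and 2891 CPM against 2959 and 2857 CPM, and Fxyd2, its gamma subunit, at 5460 and 5120 CPM against 4355 and 4393 CPM (log2 change 0.27 ± 0.09 SE, adjusted p = 0.579). Fxyd2 did not overlap between the genotypes, and Atp1b1 differed by less.

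Of 14 tight junction genes 0 passed (4 at an unadjusted p under 0.05), 5 lay above and 0 below the controls, and the median log2 change was 0.06. Cldn14, a claudin that blocks the passage of calcium, stood at 13.5 and 18.6 CPM against 4.25 and 2.94 CPM (log2 change 2.10 ± 0.38 SE, adjusted p = 0.151). Its UMIs lay in 20 of the 445 members, in like shares of the mice (4.90% and 3.90% against 4.49% and 4.55%), and up to 25 UMIs lay in a single cell, so its level rests on few cells. Cldn16 stood at 180 and 114 CPM against 88.5 and 98.0 CPM (adjusted p = 0.603). Cldn3 stood at 196 and 158 CPM against 107 and 80.8 CPM. These genes were higher in both Trim28Δ/Δ mice, and Cldn10 overlapped at 668 and 707 CPM against 827 and 634 CPM. Of 8 tested genes of calcium and magnesium handling, a list that holds Cldn14 and Cldn16 too, 0 passed (3 at an unadjusted p under 0.05), 4 lay above and 0 below the controls, and the median log2 change was 0.23.

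Of 5 tested macula densa genes 0 passed (1 at an unadjusted p under 0.05) and 2 lay above the controls. Ptgs2 stood at 185 and 149 CPM in Trim28Δ/Δ against 20.8 and 76.6 CPM in Trim28f/f members (log2 change 1.83 ± 0.50 SE, adjusted p = 0.424). It was seen in 35.3% and 33.8% of Trim28Δ/Δ and in 8.43% and 23.9% of Trim28f/f members. The 2 controls differed from each other severalfold, and mouse 3 was the lowest. Pappa2 overlapped at 196 and 294 CPM against 251 and 183 CPM. Of 5 tested thin limb genes, 3 lay above the controls and 0 passed (3 at an unadjusted p under 0.05), with a median log2 change of 1.55. The lens crystallin gene Cryab stood at 92.5 and 75.0 CPM against 15.2 and 37.0 CPM (adjusted p = 0.244).

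Among transcription factors of the distal nephron, 19 were tested, 0 passed (2 at an unadjusted p under 0.05), and 3 lay above and 3 below the controls. Tfap2b, a factor of the distal tubule, stood at 477 and 488 CPM against 324 and 478 CPM. Tfcp2l1, a further factor of this part of the nephron, stood at 544 and 434 CPM against 253 and 422 CPM. Irx2 stood at 62.0 and 74.1 CPM against 95.5 and 130 CPM (adjusted p = 0.489), and Pou3f3 at 203 and 216 CPM against 154 and 213 CPM. Of 11 tested hormone and paracrine receptors, 0 passed (1 at an unadjusted p under 0.05), and 2 lay above and 2 below. Pth1r, the parathyroid hormone receptor, stood at 378 and 271 CPM against 219 and 260 CPM. Of 12 early nephron genes, 0 passed (1 at an unadjusted p under 0.05), with 1 above and 2 below the controls, and Wnt4, a signal of nephron induction, overlapped at 18.0 and 31.2 CPM against 24.4 and 16.0 CPM.

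Outside the Meg3 locus no imprinted gene passed, and over the whole list more lay below the controls than above. Of 27 listed, 20 were tested and Meg3 and Rian passed. Of these 20, 5 lay above (Meg3 and Rian among them) and 11 below the controls, against a background of 18.9% above and 18.2% below. The median log2 change of the 20 was -0.34. Gnas, which encodes a G protein alpha subunit, stood at 911 and 858 CPM against 807 and 832 CPM, and Kcnq1ot1, a paternally expressed antisense RNA, at 309 and 352 CPM against 354 and 429 CPM. H19, a maternally expressed non-coding RNA, stood at 45.8 and 70.4 CPM against 118 and 111 CPM (adjusted p = 0.296). Igf2, Cdkn1c and Mest likewise lay below without passing, and all of these were more abundant in the other cells of the library than in the members (H19 401 CPM). Without the 28 members that held markers of other types, the log2 change of H19 was -0.61 (adjusted p = 0.779) and the median of the list was -0.27. Of 13 tested partners of Trim28 and DNA methylation genes, 0 passed (0 at an unadjusted p under 0.05), 0 lay above and 1 below, with a median log2 change of -0.05. Setdb1, the histone methyltransferase that TRIM28 recruits, stood at 35.9 and 37.3 CPM against 35.3 and 41.7 CPM.

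Cytosolic ribosomal protein genes lay lower as a group. Of 80 tested, 0 passed, 0 lay above and 76 lay below the controls, against the background of 18.2%, and 25 had an unadjusted p under 0.05. The median log2 change was -0.22, and -0.24 without the members that held markers of other types. The list summed to 183141 and 198960 CPM in Trim28Δ/Δ against 220769 and 221203 CPM in Trim28f/f members. In proximal tubule cells it summed to 176442 and 198356 against 223922 and 215973 CPM, and in collecting duct cells to 228838 and 233234 against 223937 and 230188 CPM. Over all assigned cells it summed to 219813 and 233650 against 258658 and 260257 CPM, lower in both Trim28Δ/Δ mice as well. In distal convoluted cells it summed to 162863 and 174428 against 186718 and 157954 CPM, where the genotypes overlapped. Rps7 stood at 3026 and 3267 CPM against 3741 and 3615 CPM (log2 change -0.23, adjusted p = 0.685). Reads of these genes may be shared with their pseudogenes. Beside this stands the mitochondrial share, which was higher in both Trim28Δ/Δ mice.

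Of 78 genes of oxidative phosphorylation, 0 passed (0 at an unadjusted p under 0.05), 18 lay above and 1 below the controls, and the median log2 change was 0.11. The background was 18.9% above and 18.2% below, and 70 of the 78 genes had a log2 change above 0. Their sum overlapped between the genotypes. Fatty acid oxidation (16 tested, 3 above and 2 below) and the citric acid cycle (14 tested, 1 above and 1 below) had 0 calls and 1 gene at an unadjusted p under 0.05. Of 12 S phase genes 0 passed (3 at an unadjusted p under 0.05), 7 lay above and 0 below, and the median log2 change was 0.40. Pcna, the sliding clamp of replication, stood at 87.1 and 92.7 CPM against 55.7 and 75.3 CPM (adjusted p = 0.685). Of the 12 genes of the G2 and M phases, 0 passed (0 at an unadjusted p under 0.05), 0 lay above and 3 below.

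Glycolysis (14 tested, 0 called, 3 at an unadjusted p under 0.05, 0 above and 5 below) and the hypoxia response (13 tested, 0 called, 8 at an unadjusted p under 0.05, 0 above and 1 below) had negative median log2 changes, at -0.51 and -1.35. In the sums of both lists mouse 3 stood alone. For glycolysis 5 of 14 genes lay below both controls, against a background of 18.2%, and all 14 had a negative log2 change. Mouse 3 enters both counts, and its part in them was not tested. Gapdh, the most abundant glycolysis gene, stood at 1726 and 1701 CPM against 2417 and 1599.8 CPM. Glycolysis genes summed to 5779 and 5883 CPM in Trim28Δ/Δ members and to 10460 CPM in mouse 3 against 5599 CPM in mouse 4, which lay beside the Trim28Δ/Δ mice.

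Genes that the study named for its kidneys were looked up in the members. In the study, Spp1, Vcam1 and Prom1 were higher and Kl and Slc34a1 lower in proximal tubule cells, a different cell type from the members. Spp1, which encodes osteopontin, stood at 1002 and 962 CPM against 727 and 810 CPM (log2 change 0.35, adjusted p = 0.601). Vcam1, an adhesion gene of injured tubules, stood at 8.09 and 22.4 CPM against 4.92 and 1.68 CPM (adjusted p = 0.493). Prom1, a further injury-related gene, overlapped at 99.7 and 114 CPM against 90.8 and 116 CPM, and Kl, the klotho gene, stood at 87.1 and 68.5 CPM against 44.3 and 54.3 CPM (adjusted p = 0.542). Of these, Prom1 alone overlapped between the genotypes, and 0 passed. Slc34a1, the phosphate transporter of the proximal tubule, was at 42.7 and 55.9 CPM against 47.4 and 82.9 CPM, and Cyp2d12 was too low to be tested. Among 9 tested tubule injury genes 0 passed (4 at an unadjusted p under 0.05), 4 lay above and 1 below, with a median log2 change of 0.35. Clu (clusterin) stood at 209 and 153 CPM against 80.03 and 98.9 CPM (adjusted p = 0.212).

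Stress lists gave 0 calls too. Of the immediate early genes (14 tested), 2 lay above and 1 below, of the interferon response (9 tested), 1 above and 2 below, of the p53 targets (10 tested), 3 above and 0 below, and of the unfolded protein response (9 tested), 0 above and 0 below. At an unadjusted p under 0.05 these lists held 2, 0, 1 and 0 genes. Jund stood at 356 and 341 CPM against 308 and 267 CPM, and Hsp90b1, an endoplasmic reticulum chaperone gene, overlapped at 804 and 905 CPM against 822 and 1023 CPM. By DESeq2 the calls among the listed genes included Meg3, Rian, Wfdc15b, Cryab, Spon1 and Clu.

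No marker of another cell type passed the test in the members. The lists of podocyte, ureteric and collecting duct, intercalated, immune and erythroid markers had 0 genes above and 0 below the controls, while 3 of 4 tested mural and 2 of 6 endothelial markers lay below, and 3 of 11 proximal tubule and 2 of 3 nephron progenitor markers lay above. All 5 tested stroma markers of 8 lay below the controls, 0 passed (4 at an unadjusted p under 0.05, and 4 by DESeq2), and their median log2 change was -2.74. The stroma list summed to 28.9 and 36.5 CPM in Trim28Δ/Δ against 128 and 265 CPM in Trim28f/f members. A single cell held 321 of the 583 stroma UMIs of mouse 3, and a single cell held 491 of the 633 of mouse 4. After the 28 members with markers of other types were left out, the sums were 30.8 and 37.1 against 30.4 and 31.4 CPM, and Col3a1, a fibrillar collagen gene, changed by 0.04 on the log2 scale in place of -2.81. Markers of the distal convoluted and connecting tubule summed to 2937 and 1043 CPM against 450 and 350 CPM, mainly through S100g, which encodes the calcium-binding protein calbindin-D9k. S100g stood at 2914 and 995 CPM against 378 and 312 CPM (log2 change 2.50 ± 0.44 SE, adjusted p = 0.113) and was at 1526 CPM in free RNA. In Umod-free members it stood at 4130 and 2644 CPM against 319 and 618 CPM, without overlap. The genotypes overlapped in Umod-rich members, at 132 and 113 CPM against 191 and 110 CPM. They also overlapped in members with 1 to 7 Umod UMIs, at 4012 and 116 CPM against 649 and 244 CPM. A single member held 1312 of the 6488 UMIs of mouse 1.

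**Figure D4:**
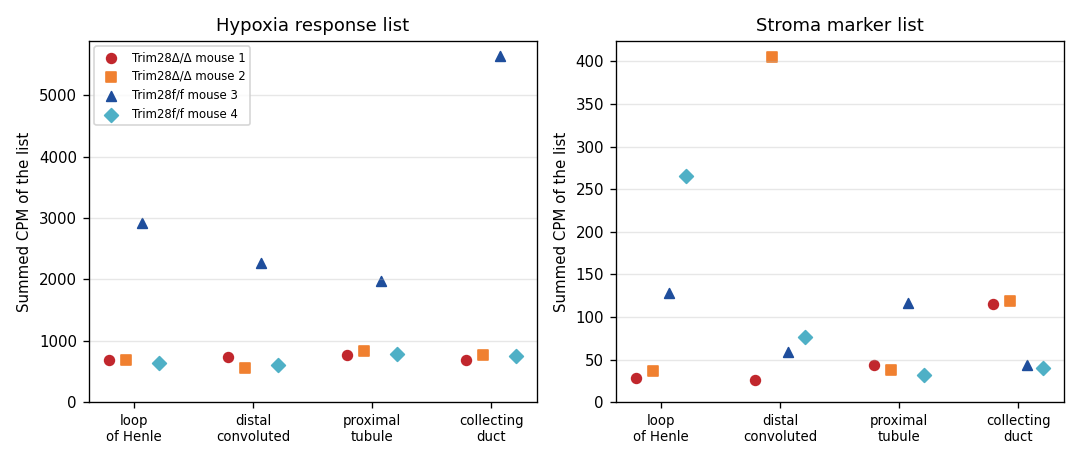
Summed CPM of the hypoxia response list (left) and of the stroma marker list (right) in each mouse for loop of Henle, distal convoluted, proximal tubule and collecting duct cells, with 1 symbol for each mouse. Mouse 3 is above the other 3 mice for the hypoxia list in all 4 cell types (2923 CPM against 635 to 691 CPM in loop of Henle cells), and both controls are above both Trim28Δ/Δ mice for the stroma list in loop of Henle cells. In collecting duct cells both Trim28Δ/Δ mice are above both controls for the stroma list (116 and 119 against 43.4 and 40.1 CPM).

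The same comparison was run in the neighbouring cell types to ask which changes the members shared. Distal convoluted cells had 4 called genes of 8514 (0.047%), proximal tubule cells 44 of 11820 (0.372%) and collecting duct cells 0 of 11403 (0%), where 564 genes had an unadjusted p under 0.05. Of the 18 genes called in the members, 13 were tested in distal convoluted cells, where 11 had a log2 change of the same sign and Meg3, Rian and Gm11100 also passed. In proximal tubule cells 13 were tested, 13 had a log2 change of the same sign and 6 passed, namely Trim28, Meg3, Rian, Resf1, Gm11100 and Gm49708. In collecting duct cells, which descend from the ureteric bud and not from Six2-expressing progenitors, 12 were tested, 11 had a log2 change of the same sign and 0 passed. The comparisons use different cells of the same 4 mice. The share of all tested genes with the same sign was not counted, so the counts of signs have no background.

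Trim28 stood at 31.5 and 36.7 CPM against 80.02 and 84.7 CPM in distal convoluted cells, and at 21.6 and 24.7 CPM against 66.2 and 75.9 CPM in proximal tubule cells. In collecting duct cells it stood at 84.9 and 110 CPM against 83.5 and 99.4 CPM, where the genotypes overlapped. Meg3 stood at 729 and 908 CPM against 67.0 and 65.2 CPM in distal convoluted cells, at 208 and 169 CPM against 27.4 and 15.6 CPM in proximal tubule cells and at 62.1 and 55.2 CPM against 30.2 and 11.7 CPM in collecting duct cells. Among the cell types compared, distal convoluted and loop of Henle cells of Trim28Δ/Δ mice thus held the most Meg3. The collecting duct cells lay below the level of free RNA.

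**Figure D5:**
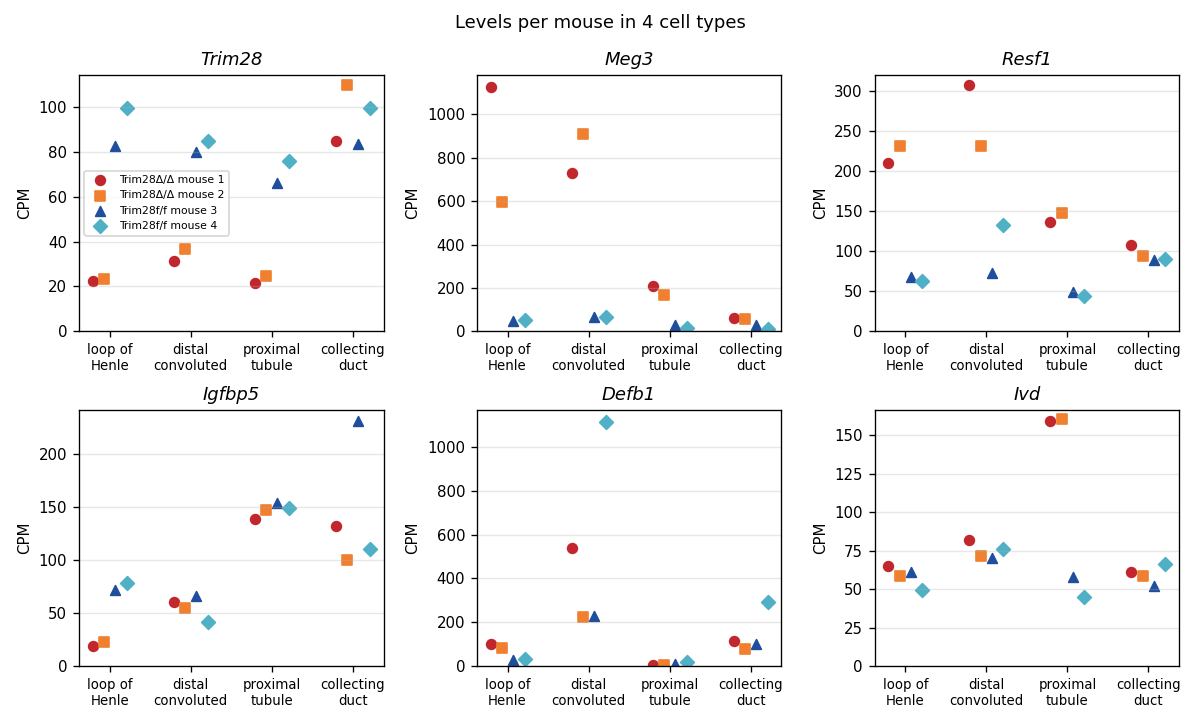
CPM of Trim28, Meg3, Resf1, Igfbp5, Defb1 and Ivd in each mouse in loop of Henle, distal convoluted, proximal tubule and collecting duct cells, with 1 panel for each gene and 1 symbol for each mouse. Trim28 is lower in the Trim28Δ/Δ mice in 3 cell types and overlaps in collecting duct cells (84.9 and 110 against 83.5 and 99.4 CPM).

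The difference itself was tested as the interaction of genotype and cell type, with the mouse as a block, and CPM in this paragraph are scaled over the sums of both cell types. Against distal convoluted cells, 1 gene of 11171 passed (0.00895%), Ly6d, whose value rested on mouse 3. Against proximal tubule cells 5 genes of 12958 passed (0.0386%), and 0 passed when cells with 5 or more UMIs of Umod plus Slc12a1 were taken as members (873 at an unadjusted p under 0.05 by edgeR). Of the 5 genes Igfbp5 fell in the members and differed little between genotypes in proximal tubule cells (log2 change -0.08), a difference of -1.77 ± 0.19 SE (adjusted p = 0.0344). Ivd, an enzyme of leucine breakdown, stood at 60.8 and 54.3 CPM against 57.0 and 46.2 CPM in members but at 171 and 172 CPM against 62.0 and 48.3 CPM in proximal tubule cells (difference -1.48 ± 0.18 SE, adjusted p = 0.0344). Defb1, the beta-defensin 1 gene, stood at 96.0 and 76.8 CPM against 25.8 and 32.1 CPM in members and at 5.85 and 6.999 CPM against 10.1 and 21.4 CPM in proximal tubule cells (difference 2.78 ± 0.34 SE, adjusted p = 0.0344). Free RNA held Defb1 at 92.8 CPM, above its level in proximal tubule cells and near or above that in the members, and the part of free RNA in the difference was not tested. Defb1 passed neither within the members alone (adjusted p = 0.0511) nor within proximal tubule cells alone (adjusted p = 0.282).

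Against collecting duct cells 67 genes of 11940 passed (0.561%). Among the 18 genes called in the members these were Trim28 (difference -2.07 ± 0.21 SE, adjusted p = 0.000856), Meg3 (2.62 ± 0.38), Rian (3.01 ± 0.41), Resf1 (1.57 ± 0.18), Prnp (2.06 ± 0.32), Hspb1 (1.71 ± 0.25), Ethe1 (1.24 ± 0.18) and 2410018L13Rik (2.29 ± 0.41), or 8 of 18. The stroma genes Col1a1, Col1a2, Col3a1 and Dcn passed as well, and the members that carried stroma markers moved with them as given above. In collecting duct cells these genes were higher in both Trim28Δ/Δ mice without overlap, Col1a1 at 31.7 and 36.1 CPM against 8.91 and 10.0 CPM. The stroma list summed there to 116 and 119 CPM against 43.4 and 40.1 CPM. Without mouse 1 the count was 6 and without mouse 2 it was 1, while without mouse 3 it was 160 and without mouse 4 it was 595.

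The count of 18 genes in the members also depended on single mice. It was 6 without mouse 1 and 27 without mouse 2, and 180 without mouse 3 and 1610 without mouse 4. All 18 genes kept their direction in every alternative in which they were tested, which was 13 for B830012L14Rik and Cdh13 and 14 for the others, and Meg3 and Gm11100 also passed in all 14.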

How the data were processed

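Gene and tag counts per barcode were used as the authors deposited them, a raw matrix of 3921239 barcodes by 32285 genes and 12 tags, made by Cell Ranger (6.0.0 in the study's methods, an earlier version in the matrix header). The study used Seurat 4.0 in R 4.1.0. The submitters' processing notes name GRCm38 and mm10 without tying either to these counts. A barcode was kept with 6890 or more gene UMIs, 200 or more genes and a mitochondrial share up to 10% (19273 barcodes). A cell went to a mouse when its top tag among CMO301 to CMO308 held at least 50 UMIs and at least 80% of the UMIs of these tags. Of 10098 tagged cells, 6495 carried a tag named in the deposited list, and 9175 cells without a clear tag were not used. No doublet caller was run. A mixed tag removes pairs from different mice only, so pairs from the same mouse may remain among the members. The bulk RNA samples of newborn kidneys were not analysed here.

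UMIs were summed per mouse. Genes were tested with edgeR 4.0.16 in R 4.3.3 (filterByExpr, TMM factors, quasi-likelihood F-test, Benjamini-Hochberg adjustment over all genes tested, threshold 0.05), with DESeq2 1.42.0 as an alternative. The study compared cells by a Wilcoxon test, which was not used because the mouse is the replicate. On simulated counts in 10846 genes with known changes, the comparison in loop of Henle cells called 90.7% of 4-fold and 38.8% of 2-fold changes. In the same run 5 unchanged genes were called. Counts were drawn with the spread between mice typical of a gene's level (edgeR's trended dispersion), so genes that vary more are not covered. Shares were tested by exact permutation over mice. Members and gene lists were chosen with earlier results of these data known. Named genes are Trim28, up to 12 called genes in each direction whose genotypes did not overlap, the most abundant genes of each list, genes the study names and the 15 leading genes of the members. Positions are from GENCODE M21 (GRCm38). Alternatives were the size factors, the filter, the rule, the tags and each mouse left out. A few listed genes are not reported here.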

Additional observations from a re-analysis of the deposited data

Results flagged for a closer look

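Against distal convoluted cells, the change of Ly6d, a surface antigen gene, differed from that in the loop of Henle cells by 13.3 on the log2 scale (adjusted p = 0.0110, edgeR's quasi-likelihood test of the interaction). In the distal convoluted cells it stood at 250 CPM in Trim28f/f mouse 3 and at 0 CPM in the other 3 mice, so the value rests on a single mouse and the number is no measure of size.

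Against proximal tubule cells, 5 genes differed in their change between genotypes. The difference in log2 change was 2.78 for Defb1, 1.62 for Krt7, an epithelial keratin, and 1.32 for Tmsb4x, a thymosin, all higher in Trim28Δ/Δ loop of Henle cells. Krt7 stood at 239 and 154 CPM in Trim28Δ/Δ against 60.4 and 91.2 CPM in Trim28f/f loop of Henle cells, and at 42.6 and 36.3 CPM against 39.95 and 54.1 CPM in proximal tubule cells. The difference was -1.77 for Igfbp5 and -1.48 for Ivd, with adjusted p = 0.0344 for each of the 5 genes. With members taken at 5 or more UMIs of Umod plus Slc12a1, 0 genes passed this test.

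Against collecting duct cells, the 10 genes examined here comprised 5 with a difference above 0 and 5 below. The difference was 4.65 for Sprr1a, a cornified envelope gene, 4.18 for S100g, 1.69 for Fabp3, a fatty acid binding protein gene, 1.6 for Ly6a, a surface antigen gene, and 1.44 for Sostdc1. Within loop of Henle and collecting duct cells, log2 changes were 4.64 and 0.02 for Sprr1a and 2.50 and -1.73 for S100g. They were -0.01 and -1.71 for Fabp3, 0.55 and -1.06 for Ly6a and -0.48 and -1.90 for Sostdc1. None of these genes passed within either cell type alone. The level of Sprr1a rests on few cells, as it was seen in 8 and 4 Trim28Δ/Δ and 4 and 3 Trim28f/f members. A single member held 35 of its 99 UMIs in mouse 1, and another held 18 of its 34 UMIs in mouse 2. S100g stood at 2910 and 986 CPM against 376 and 310 CPM in loop of Henle cells. Among these cells the genotypes separated for S100g in Umod-free members and overlapped in the other parts. In collecting duct cells S100g stood at 2731 and 657 CPM against 2998 and 8252 CPM, and the mice differed widely. The difference was -2.07 for Trim28, -5.57 for Dcn, -4.18 for Col1a1, -4.14 for Col3a1 and -3.8 for Col1a2. In the members the 4 stroma genes lay mainly in a few cells of both control mice, as given in the report. Within collecting duct cells their log2 changes were 2.19 for Dcn, 1.85 for Col1a1, 1.53 for Col3a1 and 1.22 for Col1a2. Both cell types thus enter these differences.

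Cells that met the loop of Henle rule also occurred under tags that the deposited list does not name. There were 179 of them, among 3603 such cells of 4 tags, with 43 of 938, 34 of 940, 55 of 816 and 47 of 909 cells by tag. Their mice and genotypes are not known here, and they were not analysed further.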

How the results depend on the processing

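No paired analysis was possible because the mouse numbers only name embryos, and nothing in the labels ties a Trim28Δ/Δ embryo to a control. The count of genes called in loop of Henle cells (18) was 57 with DESeq2, 427 with no filter on low counts, 54 without members above 40000 UMIs, 36 without members with markers of other types and 2 with a top tag of at least 90%, which leaves fewer cells. Leaving out a mouse gave 6 to 1610 genes (6 without mouse 1, 180 without mouse 3 and 1610 without mouse 4), and the lone remaining mouse of a genotype is then assumed to vary like the others. The other settings gave 16 to 22 genes. The G2 and M difference (-3.23 percentage points) was -8.31 without thinning, -0.266 at 10 or more UMIs, -0.528 without mouse 1 and -5.94 without mouse 2. The difference in the share of loop of Henle cells (0.937 percentage points) was -0.478 with a top tag of at least 90%, -0.443 without mouse 1, 2.32 without mouse 2, 1.67 without mouse 3 and 0.205 without mouse 4, against an SD of 1.95 between Trim28Δ/Δ and 1.04 between Trim28f/f mice.

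For the interaction with distal convoluted cells (1 gene), DESeq2 gave 0 (72 at an unadjusted p under 0.05), no filter gave 62, and leaving out a mouse gave 3 to 49. With proximal tubule cells (5 genes), DESeq2 gave 18, no filter 143, members at 5 or more UMIs gave 0 (873 at an unadjusted p under 0.05) and at 15 or more 10, and leaving out a mouse gave 15 to 282. With collecting duct cells (67 genes), DESeq2 gave 28, no filter 348, and leaving out a mouse 1 to 595. Of 305 alternative values for named genes, 251 kept direction and side of the threshold, 47 no longer passed and 5 newly passed. Prom1 alone turned, to -0.045 without mouse 2 and -0.123 without mouse 3 (0.231 without mouse 4). The causes were not tested.

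With 2 mice a genotype, most simulated 2-fold changes were missed, and shares cannot pass an exact test. Trim28 counts at the 3′ end fell but do not by themselves show which cells carry the deletion.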
